A study of Mus musculus with 48 samples.

Results

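This account follows m6A peaks on 8 genes that mark inhibitory interneurons of the mouse hippocampus: Erbb4, Adarb2, Gad1, Gad2, Sst, Pvalb, Vip and Reln, out of 22380 annotated protein-coding genes. Peaks were assigned to a gene when they overlapped its body in the mouse genome mm9 by at least 1 bp, and the entries that name these genes in the 10 deposited comparison tables were added. The members were chosen by their peak calls and listed levels in these same data, so those values describe the genes and are no independent support. The tissue was hippocampus of male KI mice, which are heterozygous Hdh+/Q111 knock-in animals with an expanded CAG repeat in Htt, and of their WT littermates, all on a C57BL/6 background. Mice were 8 or 5 months of age and were either naive or had been habituated to an open field and trained in the OLT, the object location task, a spatial memory task after which tissue was taken at 30 min. This gave 8 conditions of 3 animals each, with an m6A-IP and an input library per animal. The mutant allele is present in every cell of a KI mouse, and the tissue was not sorted, so interneurons were a minority of what was sampled.

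Interneurons release GABA, which the glutamate decarboxylases encoded by Gad1 and Gad2 make. Erbb4 is the receptor tyrosine kinase for neuregulins on many interneurons, and Adarb2 is a brain member of the ADAR family of RNA-editing enzymes for which no editing activity is known. Sst, Pvalb and Vip mark separate interneuron classes, and Reln encodes reelin, a secreted protein of Cajal-Retzius cells and some interneurons. m6A is a methyl mark on adenosine placed by the METTL3-METTL14 complex mainly at the motif DRACH (D is A, G or T, R is A or G, H is A, C or T), of which GGAC holds the most used core. MeRIP-seq enriches RNA fragments bearing m6A by immunoprecipitation (IP), and peaks are the places where IP reads exceed those of the unenriched input RNA. In bulk tissue, fewer interneurons and less RNA per interneuron cannot be told apart, and a gene without a peak may still be methylated below the detection limit.

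Nearly all of the m6A signal on these genes lay on Erbb4 and Adarb2. When the peaks of the 24 animals were joined into common regions, the 8 genes held 109 of 81807 regions and 912 of 857395 peaks. Erbb4 (chr1:68078760-69154633, minus strand) held 43 regions and Adarb2 (chr13:8202112-8767993, plus strand) held 48. Reln (chr5:21390272-21850523, minus strand) held 10, Gad2 (chr2:22477725-22549394, plus strand) 4, Gad1 (chr2:70391129-70440071, plus strand) 2 and Sst (chr16:23889667-23890930, minus strand) 2. Pvalb (chr15:78021544-78036830, minus strand) and Vip (chr10:4698927-4707323, minus strand) had no peak in any of the 24 animals. The nearest region was 20733 bp past the end of Pvalb and was called in 1 animal, and that nearest to Vip was 34631 bp before its start and was called in 2. The median member peak had a fold enrichment of 4.71 and a −log10 q of 7.27, against 4.80 and 9.99 over all peaks. The weakest member peak had a −log10 q of 1.32, just above the lowest value of 1.30 in the lists.

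The sequences at or near the summits show what some of the regions of Erbb4 and Adarb2 stand on. Each is given as DNA on the transcribed strand, 5′ to 3′, read from mm9, with GGAC in capitals. The first 2 come from exons of Adarb2, are regions called in all 24 animals and hold GGAC. The other constant regions outside introns, Erbb4 regions 1, 2 and 43 and Adarb2 region 48, held no GGAC on that strand in the 101 bases centred on the summit. The printed sequences are Adarb2 region 21 in the coding sequence (chr13:8568959-8569019, plus strand) and a 30-base site of region 1 in the 5′UTR (chr13:8202422-8202451, plus strand). That site was placed around the GGAC nearest the summit, and the summit itself, at 8202455, lies just past it.
Adarb2 region 21: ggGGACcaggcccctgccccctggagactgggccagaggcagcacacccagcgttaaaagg
Adarb2 region 1: tgaaattgctgaaGGACcagctcctctctg
The next 4 are intron summits with purine runs in their windows. The longest run was 101 bases in Erbb4 region 6 and Adarb2 region 18, 54 in Erbb4 region 36 and only 20 in Adarb2 region 8. Erbb4 region 36 (chr1:69012992-69013052, minus strand) and Adarb2 region 8 (chr13:8329879-8329939, plus strand) were called in all 24 animals, Erbb4 region 6 (chr1:68151938-68151998, minus strand) in 18 and Adarb2 region 18 (chr13:8547609-8547669, plus strand) in 4.
Erbb4 region 36: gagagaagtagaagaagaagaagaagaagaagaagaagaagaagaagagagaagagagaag
Adarb2 region 8: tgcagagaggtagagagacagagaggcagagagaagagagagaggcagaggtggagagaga
Erbb4 region 6: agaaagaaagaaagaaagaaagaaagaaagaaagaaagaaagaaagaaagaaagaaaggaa
Adarb2 region 18: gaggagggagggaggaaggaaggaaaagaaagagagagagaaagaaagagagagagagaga
The last 4 are other intron summits, shown because the comparison tables list them, and of these the window of Adarb2 region 14 has a purine run of 22 bases. They are Erbb4 region 29 (chr1:68924039-68924099, minus strand), Erbb4 region 22 (chr1:68749259-68749319, minus strand), Adarb2 region 14 (chr13:8445056-8445116, plus strand) and Adarb2 region 38 (chr13:8665469-8665529, plus strand).
Erbb4 region 29: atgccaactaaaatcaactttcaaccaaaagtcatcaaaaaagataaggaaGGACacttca
Erbb4 region 22: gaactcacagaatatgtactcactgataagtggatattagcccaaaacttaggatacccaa
Adarb2 region 14: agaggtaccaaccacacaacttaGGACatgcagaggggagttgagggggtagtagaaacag
Adarb2 region 38: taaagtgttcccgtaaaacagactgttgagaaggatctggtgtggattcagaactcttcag

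At intron summits, purine runs were more frequent than pyrimidine runs. In windows of 101 bases centred on the summit, 20 or more purines in a row stood on the transcribed strand at 23 of 89 member intron regions (25.8%), and 20 or more pyrimidines in a row at 3 (3.37%). Over all 24585 intron regions that lie in 1 protein-coding gene the shares were 18.4% and 3.77%, and over 35755 exon regions they were 1.35% and 1.04%. The longest run covered the whole 101-base window in Erbb4 region 6 and in Adarb2 region 18, and it was 54 bases in Erbb4 region 36. None of the 19 member exon regions had a purine run of that length.

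**Figure D1:**
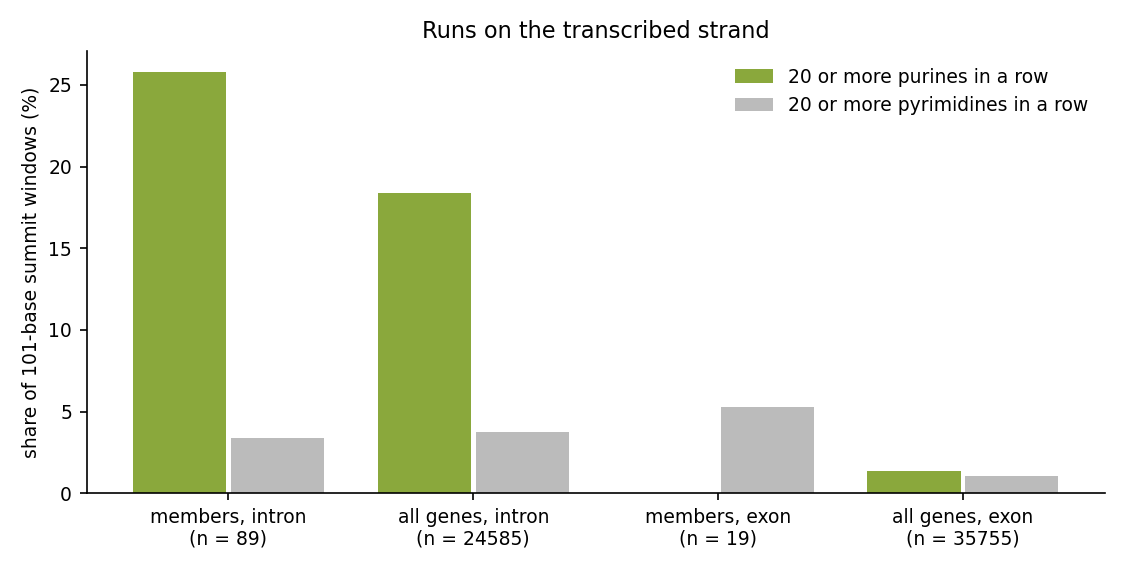
Share of 101-base summit windows (%) with 20 or more purines (green) or pyrimidines (grey) in a row on the transcribed strand, for intron and exon regions of the 8 genes and of all protein-coding genes. Purine runs stood at 25.8% of member intron windows and 18.4% of all intron windows, and pyrimidine runs at 3.37% and 3.77%.

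GGAC occurred on the transcribed strand in 27 of 109 member windows (24.8%) and on the other strand in 22 (20.2%), against 37.1% and 25.1% of all 61408 windows in 1 protein-coding gene. Among intron windows, GGAC was found in 23.6% of the member windows and in 28.3% of all. A DRACH motif of any kind was on the transcribed strand in 82.6% of member windows and 83.6% of all windows. Of the purine-run windows printed above, those of Erbb4 regions 6 and 36 and Adarb2 region 18 held none, and that of Adarb2 region 8 held 3. Of the 9 member regions called in all animals, 3 held GGAC (33.3%), namely Erbb4 region 29 and Adarb2 regions 1 and 21. The share over all 10069 regions called in all animals that lie in 1 protein-coding gene was 49%.

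Many of the intron summits also shared sequence with other peaks. At 51 of 89 member intron windows, a run of 25 bases or more was identical, on either strand, to one in the window of another region, as it was at 42.1% of all intron windows. Erbb4 region 6 shared such a run with 1031 other windows, Erbb4 region 36 with 393 and Erbb4 region 22 with 226, among them Adarb2 region 33. Adarb2 region 38 shared one with 14, whereas Erbb4 regions 2 and 29 and Adarb2 regions 1, 8, 14 and 21 shared none. The study's methods state that only uniquely mapped reads were kept and that reads in repetitive regions were removed, and whether reads of other copies reached these regions was not tested.

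Along both genes the regions were mostly intronic. Of the 42 Erbb4 regions with their summit inside the annotated gene, 38 lay in introns (90.5%), as did 40 of 48 in Adarb2 (83.3%). The share over all protein-coding genes was 39.8%, and in genes of at least 400000 bp it was 79.3%, so the shares in both genes were near that of long genes. Numbering introns from the 5′ end of the transcript with the longest coding sequence, Erbb4 had 18 regions in intron 1, which is 367141 bp long, and 7 in intron 2. Adarb2 had 17 in intron 1 (355783 bp) and 17 in intron 3 (101830 bp). Among the 322 genes of at least 400000 bp, Erbb4 ranked 47 and Adarb2 52 by the mean number of regions per animal, with 16.5 and 16.1. Reln, at 460252 bp, ranked 290 with a mean of 1.71, and the median of these genes was 7.46.

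**Figure D2:**
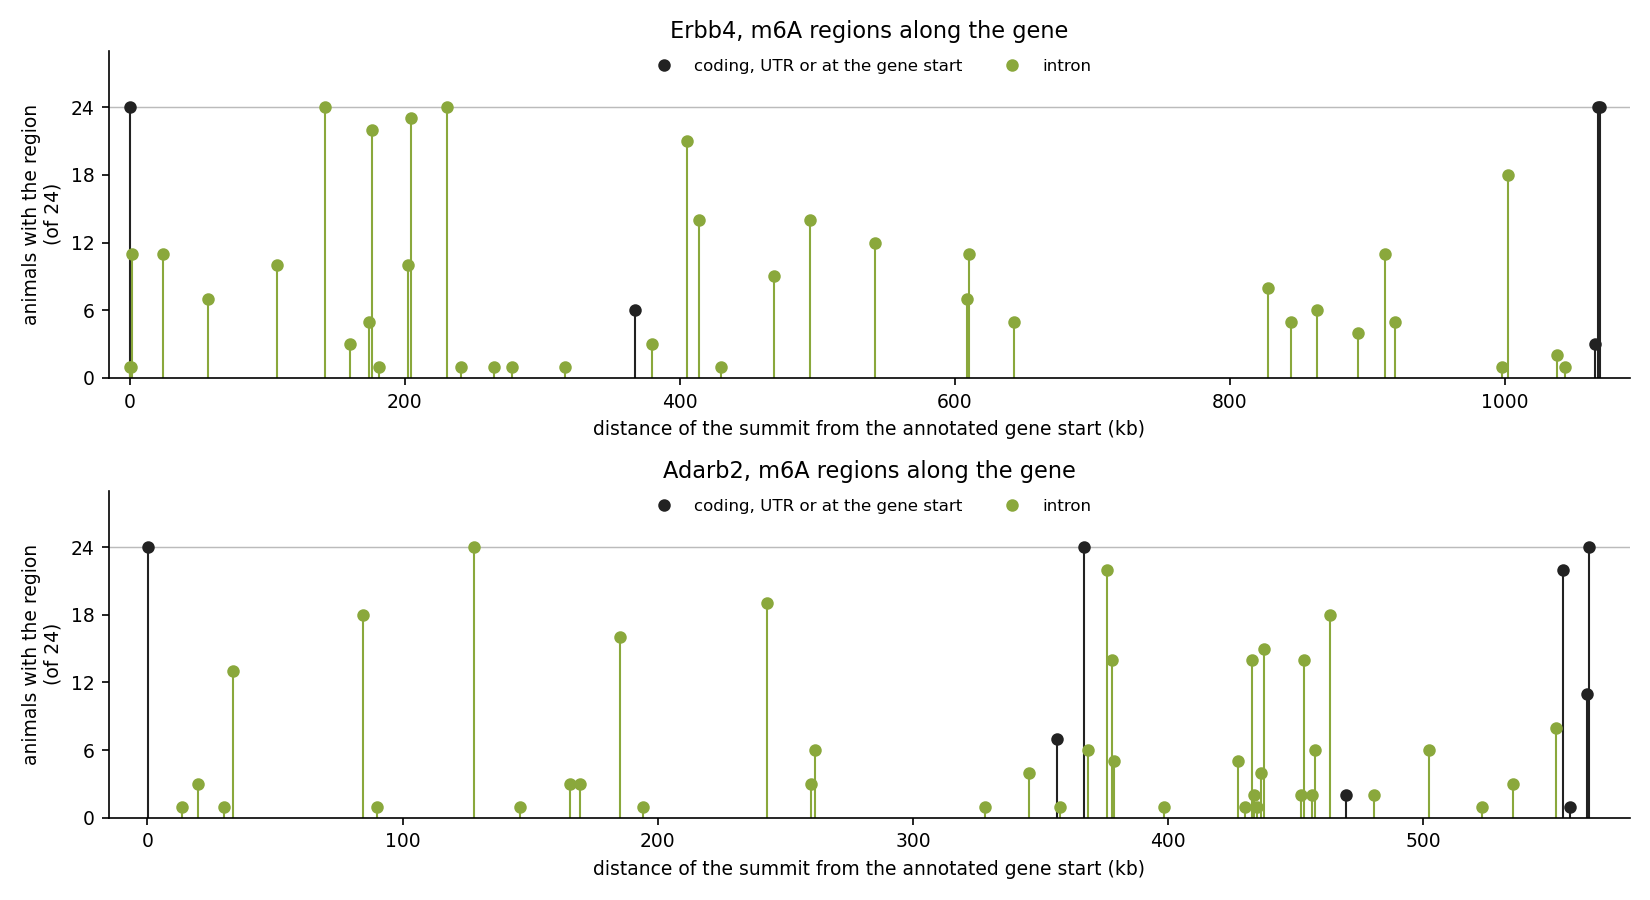
Number of animals (of 24) in which each common region of Erbb4 (top) and Adarb2 (bottom) was called, against the distance of its summit from the annotated gene start (kb). Erbb4 had 5 regions and Adarb2 4 that reached all 24 animals (grey line), and most intron regions (green) were called in fewer.

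The number of animals in which a region was called varied widely, from 24 down to 1. Erbb4 had 5 regions present in all 24 animals and 10 in a single animal, and Adarb2 had 4 and 12. The Erbb4 regions found in every animal lay in the 3′UTR (region 1, chr1:68085051-68085679), in the coding sequence (region 2), in intron 1 (region 29, chr1:68923337-68924448, and region 36, chr1:69012587-69013461) and across the gene start (region 43, chr1:69154298-69155160, with its summit just upstream of the annotated start). Those of Adarb2 lay in the 5′UTR (region 1, chr13:8202072-8202540), in intron 1 (region 8, chr13:8329634-8330144), in the coding sequence (region 21, chr13:8568691-8570116) and in the 3′UTR (region 48, chr13:8766551-8767686). Erbb4 region 36, the GAA-rich intron site printed above, reached the highest −log10 q of any member peak, 103.1, with fold enrichments between 3.61 and 10.41. Adarb2 region 8 reached 85.1 with fold enrichments between 2.05 and 5.30.

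Counted per animal, Erbb4 had between 5 and 26 regions. At 8 months, KI trained mice had 9, 11 and 14 regions, WT trained mice 16, 19 and 22, KI naive mice 13, 15 and 22 and WT naive mice 12, 14 and 15. At 5 months, KI trained mice had 18, 20 and 23 regions, WT trained mice 5, 13 and 18, KI naive mice 17, 21 and 26 and WT naive mice 14, 16 and 23. All 3 KI trained mice of 8 months were thus below all 3 WT trained mice of that age. Over their whole peak lists, these KI mice had 5755, 6318 and 7059 intron regions and these WT mice 6650, 7976 and 9587. The part of list length in the Erbb4 difference was not tested. How many of all genes separated these groups in the same way was not counted. The other 3 KI and WT pairs overlapped or touched in their Erbb4 regions.

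Adarb2 had between 7 and 28 regions per animal. At 8 months, KI trained mice had 12, 14 and 14 regions, WT trained mice 13, 18 and 22, KI naive mice 15, 21 and 22 and WT naive mice 11, 11 and 13. At 5 months, KI trained mice had 14, 16 and 21 regions, WT trained mice 7, 12 and 14, KI naive mice 16, 16 and 28 and WT naive mice 14, 15 and 27. The KI naive mice of 8 months were all above the KI trained and the WT naive mice of that age. They include the 2 longest peak lists of all animals, with 57293 and 51735 peaks. How many of all genes separated these groups in the same way was not counted. With the same number of best peaks per animal, the log2 difference of Adarb2 between all KI and all WT mice had the opposite sign, −0.20 against 0.26 with all peaks. The WT trained mouse of 5 months with the fewest regions in both genes also had the shortest peak list of all animals, with 22601 peaks.

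**Figure D3:**
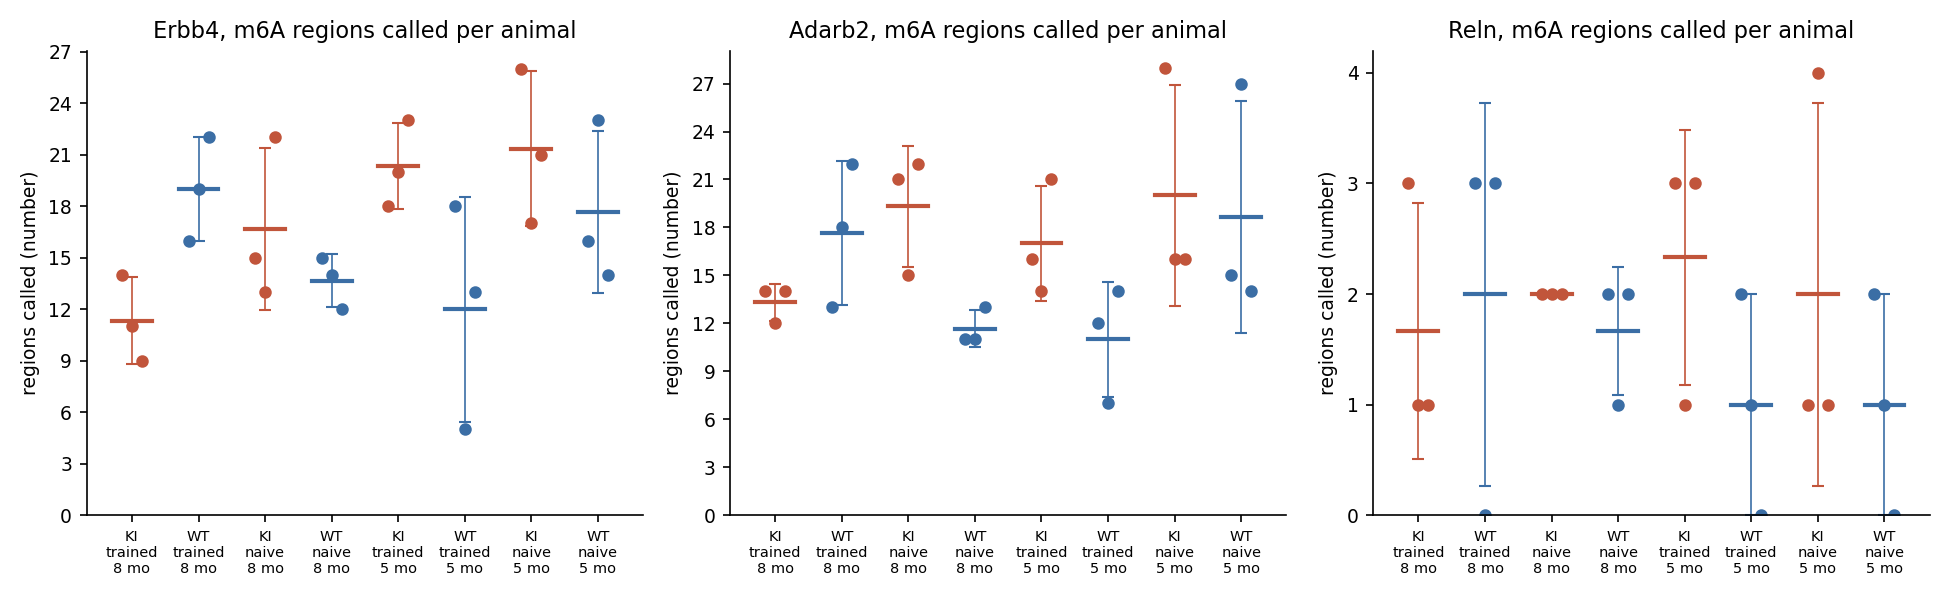
Regions called per animal (points) on Erbb4, Adarb2 and Reln in the 8 conditions, KI in red and WT in blue, with the mean (thick line) and SD (bars, n = 3). In Erbb4 the KI trained mice of 8 months had 9 to 14 regions and the WT trained mice 16 to 22. The part of list length in this difference was not tested.

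Age is the one factor that no comparison table contrasts, and no member passed the test for it. Erbb4 averaged 15.2 ± 4.06 regions at 8 months and 17.8 ± 5.57 at 5 months (SD, n = 12 each), and limma gave a log2 difference of −0.18 ± 0.16 (SE) with an adjusted p of 0.519. Adarb2 averaged 15.5 ± 4.17 regions at 8 months and 16.7 ± 5.99 at 5 months, with a log2 difference of −0.06 ± 0.14 and an adjusted p of 0.868 in limma. For Reln the means were 1.83 ± 0.937 and 1.58 ± 1.24 regions, with a log2 difference of 0.20 ± 0.28 and an adjusted p of 0.705 in limma. Of the 3 member genes with a mean of at least 1 region per animal, 0 passed an adjusted p of 0.05, against 1113 of all 9570 genes tested (11.6%), 1099 of them with more regions at 8 months. At an unadjusted p under 0.05 the counts were 0 of 3 members and 2694 of all genes (28.2%).

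Peak lists were on the whole longer in the older mice, and their part in these values was not tested beyond the following alternatives. The lists held 29783 to 57293 peaks at 8 months and 22601 to 40799 at 5 months, and the median log2 difference over all genes was 0.12. With the log2 of each animal's peak number subtracted, the difference by age was −0.42 ± 0.13 for Erbb4 (adjusted p 0.0544, limma) and −0.31 ± 0.12 for Adarb2 (adjusted p 0.0617, limma), where the median of all genes was −0.13. With the same number of best peaks taken from every animal the differences were −0.36 ± 0.12 (adjusted p 0.162, limma) and −0.35 ± 0.16 (adjusted p 0.29, limma), where that median was 0.00.

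Intron and other regions had means that lay on opposite sides in the 2 ages. Erbb4 had 11.6 ± 3.63 intron regions at 8 months and 14.7 ± 5.37 at 5 months, but 3.58 ± 0.793 other regions at 8 months and 3.17 ± 0.389 at 5 months. Adarb2 had 10.4 ± 3.8 intron regions at 8 months and 12.2 ± 5.49 at 5 months, and 5.08 ± 0.669 other regions at 8 months and 4.5 ± 0.798 at 5 months. These splits were not tested. Over the whole lists the medians per animal lay on opposite sides in the same way. They were 6964 intron and 19169 exon regions at 8 months, and 7574 intron and 15404 exon regions at 5 months. Introns held 23.3 to 31.7% of the regions in genes at 8 months (median 28.8%) and 21.8 to 40% at 5 months (median 32.5%).

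At the level of single regions, 58 member regions were called in 3 to 21 animals and could be tested for age with 2-sided Fisher's exact tests. None passed an adjusted p of 0.05 and none an unadjusted one, as 0 of all 35110 such regions passed after adjustment (0%), although 3440 did before it (9.8%). The largest difference in Erbb4 was at region 40 in intron 1 (chr1:69152745-69153251), called in 8 of 12 animals at 8 months and 3 of 12 at 5 months (Fisher's exact test, adjusted p 0.522). This region overlaps the annotated transcript Gm16076, on the same strand. In Adarb2 it was shared by region 16 in intron 1 (chr13:8463407-8463717) and region 41 in intron 6 (chr13:8704147-8704405), each called in 1 animal at 8 months and 5 at 5 months (Fisher's exact test, adjusted p 0.62).

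The enrichment of the 9 regions found in every animal passed no test for age either. The fold enrichment of IP over input was centred on each animal's median region and tested with limma over the 12187 regions called in all animals, of which 0 passed for age (0%), and 0 of the 9 members reached an unadjusted p under 0.05, against 938 of all (7.7%). The largest member difference was at the 3′UTR of Adarb2 (region 48). Its fold enrichment was 5.05 to 10.82 with a median of 6.92 at 8 months, and 2.42 to 13.88 with a median of 4.91 at 5 months. The log2 difference was 0.39 ± 0.24 (SE, adjusted p 0.769, limma). The spread was widest in KI trained mice of 5 months, with 2.42, 2.73 and 13.88. At Erbb4 region 36 the median fold enrichment was 6.71 at 8 months and 7.18 at 5 months, a log2 difference of −0.25 ± 0.15 (adjusted p 0.763, limma). The coding region 2 of Erbb4 had medians of 4.94 at 8 months and 5.15 at 5 months, and its 3′UTR region 1 had 5.29 at 8 months and 5.52 at 5 months. Medians were 5.77 at 8 months and 6.14 at 5 months at Erbb4 region 29, and 3.17 and 3.54 at region 43. In Adarb2 they were 3.63 at 8 months and 4.14 at 5 months at region 1, 2.93 and 3.28 at region 8, and 5.20 and 4.19 at region 21. The log2 differences of these 7 regions lay between −0.26 and 0.16, with adjusted p between 0.759 and 0.991 in limma.

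**Figure D4:**
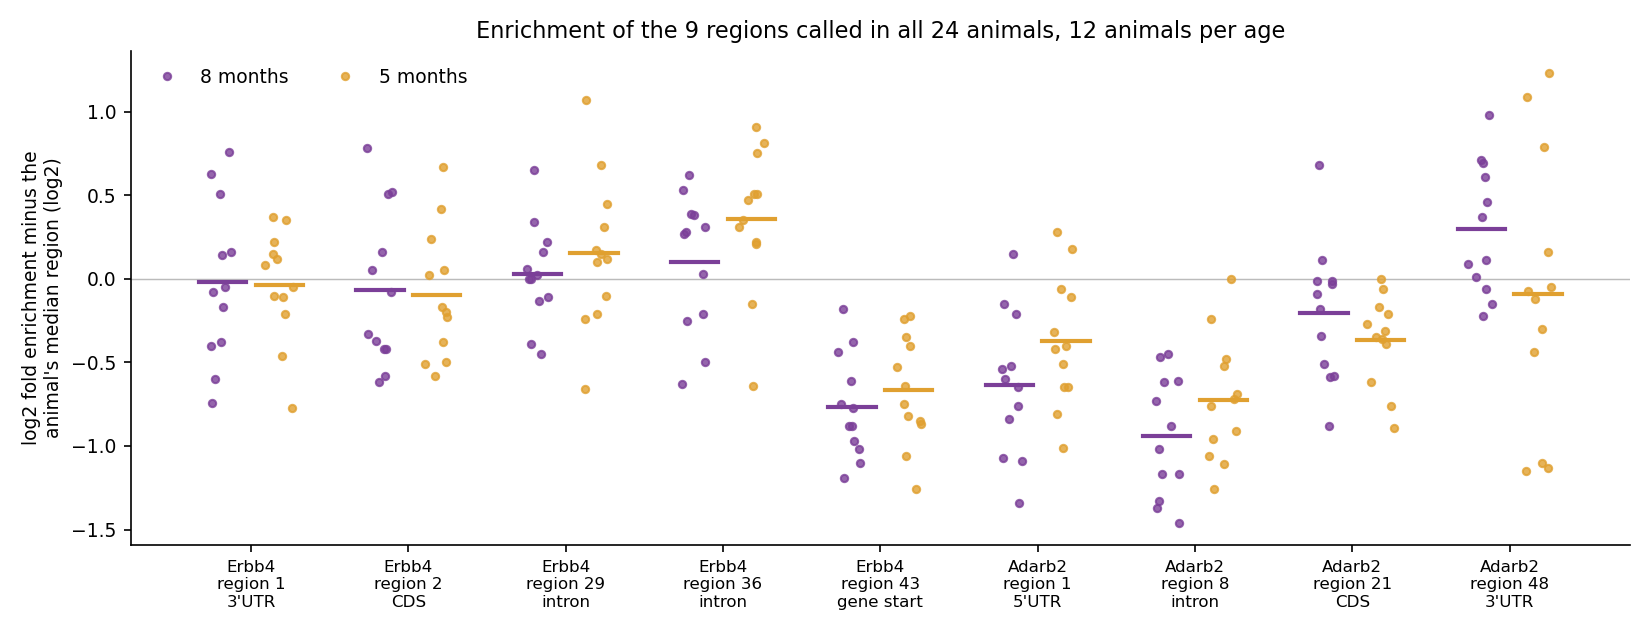
Log2 fold enrichment minus the animal's median region, for the 9 Erbb4 and Adarb2 regions called in all 24 animals, at 8 months (purple) and 5 months (yellow), with 1 point per animal and the mean as a line (n = 12 each). The ages overlapped at each of the 9 regions, with the widest spread at Adarb2 region 48 at 5 months.

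Genotype and training are the contrasts on which the rows of the comparison tables were selected, so calls by these factors are given as a description. After adjustment no member region was called for genotype or for training in Fisher's exact tests, against 0.00285% and 0% of all regions. None of the 9 constant regions was called in enrichment, against 0% and 0.00821% of all. None of the 3 genes was called in region number, against 0.0731% and 0.0313% of all. At an unadjusted p under 0.05, 1 of 58 member regions was called for genotype and 1 for training in Fisher's exact tests, against 1.79% and 1.44% of all regions. Of the 9 constant regions, 1 was called for training in limma at that level, against 3.77% of all.

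The widest gap between genotypes was at Adarb2 region 38 in intron 3 (chr13:8665251-8665733), printed above, found in all 12 KI mice but in 6 of the 12 WT mice. It was present in all 3 KI mice of each of the 4 conditions. In WT mice it was present in 2 trained mice at 8 months, 1 naive mouse at 8 months, 1 trained mouse at 5 months and 2 naive mice at 5 months. KI mice also had longer peak lists, with a median of 37268 peaks against 32712 in WT mice, and a median of 7943 intron regions against 6839. The part of list length in these calls was not tested. Fold enrichments where region 38 was called lay between 3.68 and 10.28, with a median of 5.49. The opposite pattern was seen at Adarb2 region 47 in the 3′UTR (chr13:8766138-8766458), called in 3 KI and 8 WT mice. In Erbb4 the widest gap was 4 animals, and of the regions with this gap region 21 (chr1:68740507-68741053, intron 2) was the most frequent, called in 9 KI and 5 WT mice.

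The widest gap with training was at Adarb2 region 24 (chr13:8579893-8580349, intron 3), called in 4 of 12 trained and 10 of 12 naive mice. In Erbb4 it was region 39 in intron 1 (chr1:69130313-69130801), called in 3 trained and 8 naive mice. In Reln it was region 9 in intron 2 (chr5:21783845-21784137), called in 5 trained mice and 1 naive mouse. Among the constant regions, the coding region 2 of Erbb4 had a log2 difference of −0.35 ± 0.16 (SE) between trained and naive mice, the largest of the 9.

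The comparison tables list 88 peaks of member genes among 66329, each peak counted once per table. Their values are the authors' group means of normalised reads on a log2 scale, without an error, and because each table was normalised on its own, levels are set side by side only within a table. The first and second level column were assigned to groups from the order in the design text. Among listed peaks that differed by more than 1, 58.6 to 75.6% were called in more animals of the group with the higher level and 0.55 to 13.8% in fewer. Each of the 10 tables ends with the same column line, which names the naive KI and WT mice of 8 months and so is right for 1 table, and in the other 9 the assignment rests on the design text and on these calls. Erbb4 was listed 31 times and Adarb2 50 times, both in all 10 tables. Gad1 was listed 3 times and Reln 4 times, and Gad2, Sst, Pvalb and Vip were listed in none.

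Adarb2 region 38 was higher in KI in 3 of the 4 tables of genotype. The mean level was 6.76 in KI and 5.58 in WT naive mice of 5 months, 6.88 in KI and 5.91 in WT trained mice of 5 months, and 6.73 in KI and 6.04 in WT naive mice of 8 months. Within KI mice of 8 months it was 6.23 in trained and 6.78 in naive animals. The trained KI and WT mice of 8 months were not listed at this region.

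Listed levels at several Adarb2 introns differed between trained and naive mice. At region 5 (chr13:8235566-8235890, intron 1) the mean level was 4.13 in trained and 7.95 in naive WT mice of 5 months, where it was called in 0 of 3 trained and 3 of 3 naive animals. In KI mice of that age it was 5.40 in trained and 7.35 in naive animals, and with the genotypes together it was 4.98 and 7.17. At 8 months this region was called in 3 of 6 trained and 3 of 6 naive mice and was listed in no table. Region 24 was lower in trained mice in the 5 tables that list it, with levels between 5.03 and 6.22 in trained and between 6.13 and 6.89 in naive mice. These 5 tables share animals.

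At 8 months 5 member regions were listed for training in both genotypes. Of these, 3 had a lower level in trained than in naive KI mice and a higher level in trained than in naive WT mice, and 2 had a higher level in trained mice of both genotypes. At Adarb2 region 14 (chr13:8444870-8445339, intron 1), the level was 5.88 in trained and 7.04 in naive KI mice, and 7.31 in trained and 6.45 in naive WT mice. Set directly against each other, trained mice had 5.75 in KI and 7.32 in WT. At the constant Adarb2 region 8 the levels were 10.29 in trained and 10.64 in naive KI mice, and 10.64 in trained and 10.15 in naive WT mice. At Erbb4 region 33 (chr1:68977937-68978711, intron 1) they were 8.13 in trained and 8.48 in naive KI mice, and 8.24 in trained and 7.70 in naive WT mice. The 2 others were Reln region 4, described below, and Adarb2 region 23 (chr13:8577207-8578843, intron 3), which had 7.89 in trained and 7.52 in naive KI mice, and 8.18 in trained and 7.56 in naive WT mice. The difference between the genotypes in these contrasts was not tested. Over all listed peaks, 3271 were higher and 3950 lower in trained than in naive KI mice of 8 months, and 4008 and 4075 in WT mice. How often all peaks listed in both genotypes went opposite ways was not counted. The widest difference at this age was at Adarb2 region 27 (chr13:8629209-8629461, intron 3), with 6.39 in trained and 3.12 in naive WT mice, called in 3 of 3 and 0 of 3 animals. With the genotypes together it had 5.91 in trained and 4.79 in naive mice.

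Erbb4 levels differed by less. The widest gap was at region 18 (chr1:68660056-68661065, intron 2), with 4.60 in KI and 6.08 in WT trained mice of 8 months. In the same table region 17 (chr1:68612325-68612750, intron 2) had 4.77 in KI and 6.04 in WT mice, and the AGAA-repeat region 6 (intron 20) had 5.51 in KI and 6.68 in WT mice. These 3 regions were called in 1, 0 and 1 of 3 KI mice and in all 3 WT mice. Region 6 also had 6.70 in trained and 5.56 in naive WT mice of 8 months. Region 39 had 6.54 in trained and 7.11 in naive KI mice of 8 months, called in 0 of 3 trained and 3 of 3 naive mice. Region 9 (chr1:68241312-68241846) had 5.56 in trained and 6.84 in naive KI mice of 5 months. Region 22 was higher in trained mice in the 3 tables of training that list it, with 7.46 in trained and 6.97 in naive mice of 5 months, and 7.49 in trained and 7.02 in naive mice of 8 months. The coding region 2, with levels above 11 in the 4 tables that list it, had 11.49 in KI and 11.92 in WT naive mice of 5 months, and 11.31 in KI and 11.52 in WT naive mice of 8 months. It was called in all animals of these groups. Region 30 (chr1:68949798-68951283, intron 1) was 0.43 higher in KI than in WT naive mice of 5 months, and it had 8.22 in KI and 7.70 in WT trained mice of 5 months. Region 33 had 8.44 in KI and 7.69 in WT naive mice of 8 months. Region 31 (chr1:68951804-68952220) had 6.05 in trained and 5.04 in naive mice of 5 months, genotypes together.

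**Figure D5:**
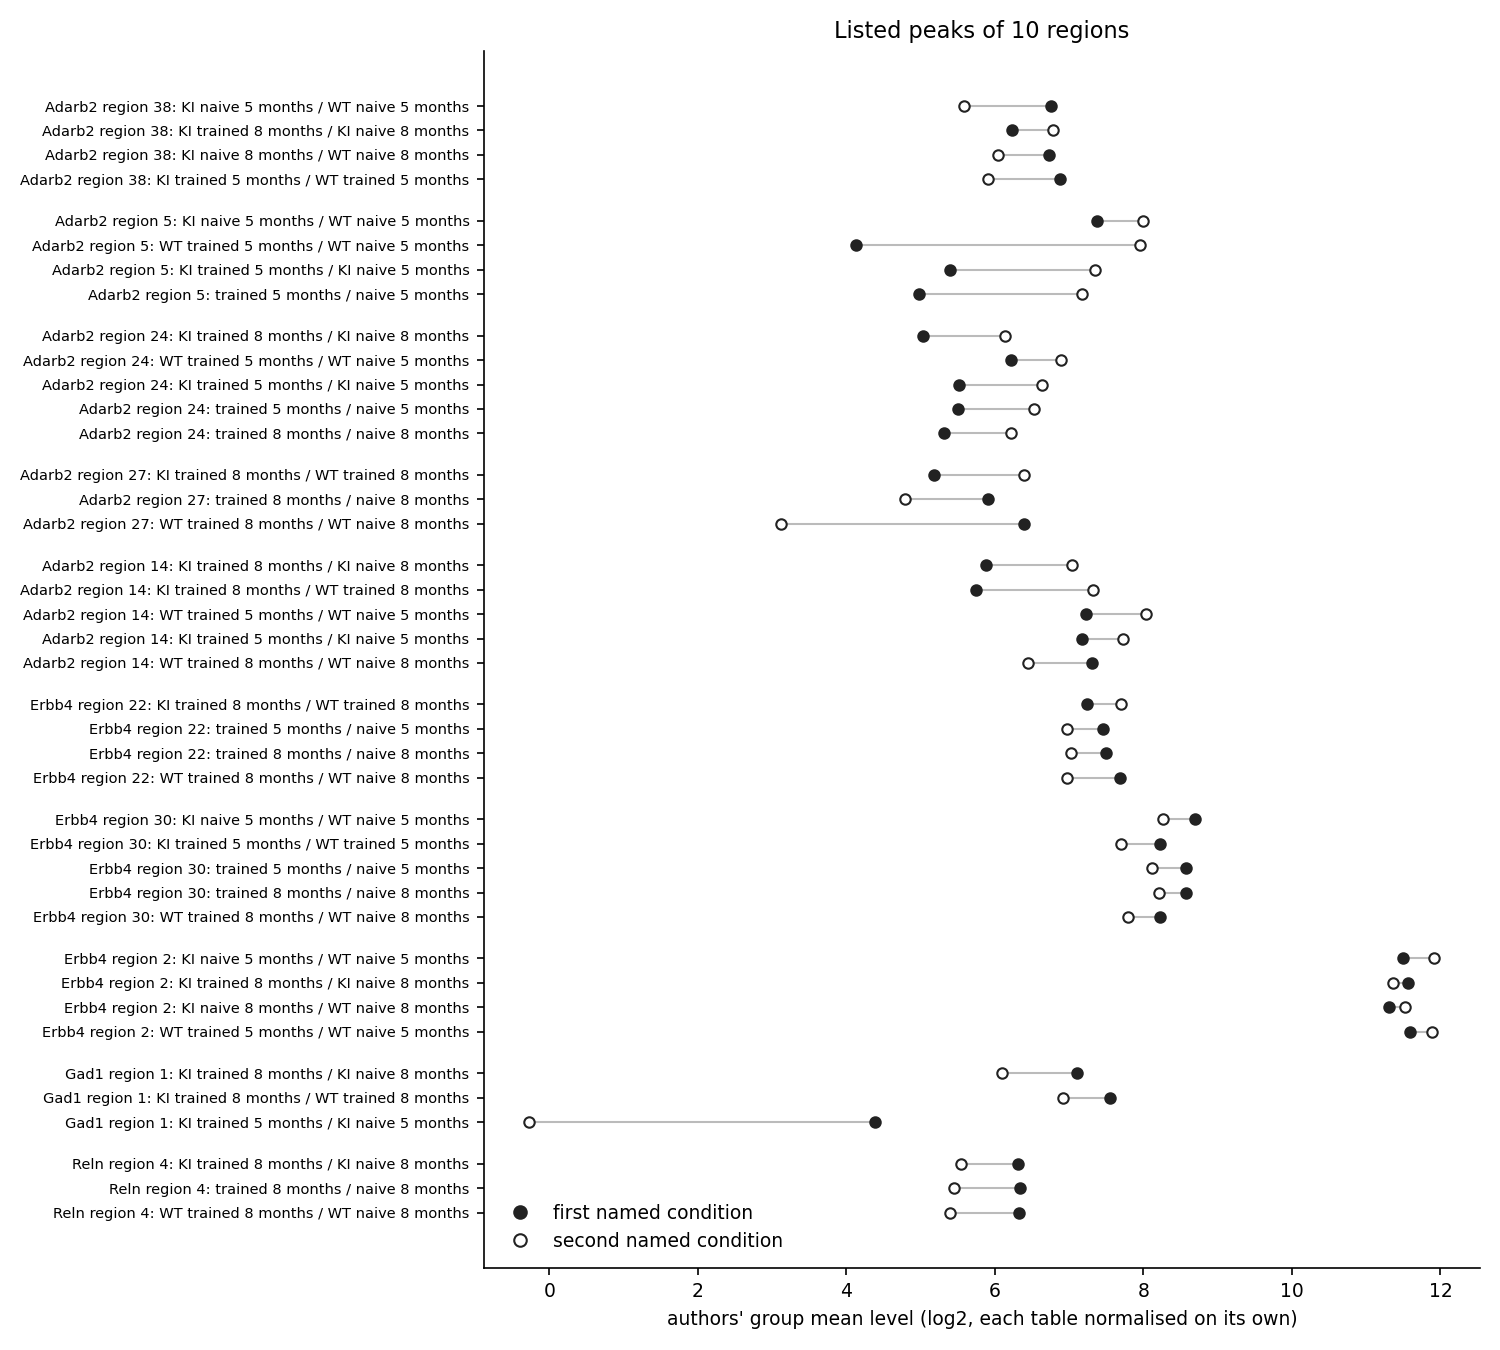
Authors' group mean levels (log2) of 10 regions of Adarb2, Erbb4, Gad1 and Reln in every table that lists them, with the first named condition filled and the second open. The regions were chosen after their values were seen. The widest gaps were at Gad1 region 1 (4.38 against −0.27 for trained and naive KI mice, 5 months) and Adarb2 region 5 (4.13 in trained, 7.95 in naive WT mice of 5 months). The −0.27 was the lowest level of any peak in its comparison.

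Gad1, which encodes the main GABA-producing enzyme GAD67, had its peak at the 5′ end. Region 1 (chr2:70399305-70400387, 5′UTR) was called in 17 of 24 animals with fold enrichments between 3.07 and 5.95, and in 10 animals at 8 months and 7 at 5 months (Fisher's exact test, adjusted p 0.876). It was called in 10 KI and 7 WT mice and in 7 trained and 10 naive mice. The region overlaps the transcript 1500002O10Rik on the opposite strand, and the peak lists carry no strand. Its level was 7.55 in KI and 6.92 in WT trained mice of 8 months, and within KI mice of that age it was 7.11 after training and 6.10 without, where the peak was called in 2 of 3 trained and 3 of 3 naive mice. At 5 months, within KI mice, it was listed at 4.38 in trained animals and at −0.27 in those left naive. The −0.27 was the lowest level of any peak in that comparison. Yet the peak lists called the region in 2 of 3 trained and in 3 of 3 naive mice. Fold enrichments lay between 5.01 and 5.94 in the naive mice. In both tables of training in KI mice the level and the calls thus went in opposite directions, and the cause was not tested.

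Gad2, the gene of GAD65, had weaker and scattered peaks. A region was called in 13 of 24 animals, and none in the 3 KI trained mice of 8 months, whereas the 3 WT trained mice of that age had 0, 1 and 2. Region 1 (chr2:22477714-22478149, 5′UTR) was called in 3 animals at 8 months and 4 at 5 months (Fisher's exact test, adjusted p 1). Region 2 in an intron (chr2:22502165-22502551) was called in 3 KI and 1 WT mice, and in 1 trained and 3 naive mice.

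Of Sst, Pvalb and Vip, only Sst had any peak. Its region 1 in the 3′UTR (chr16:23889773-23890152) was called in 1 KI naive and 1 WT naive mouse of 8 months at fold enrichments of 2.11 and 1.60, and a second region in the coding sequence in the same KI mouse. Sst is 1264 bp long, Vip 8397 bp and Pvalb 15287 bp, and the part of gene length in these counts was not tested.

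Reln had 0 to 4 regions per animal and 9 of its 10 regions in introns. Region 4 (chr5:21707553-21707895) was the most frequent, called in 14 of 24 animals, 8 at 8 months and 6 at 5 months (Fisher's exact test, adjusted p 1). At 8 months its level was 6.31 in trained and 5.54 in naive KI mice, and 6.33 in trained and 5.39 in naive WT mice, while it was called in 2 of 3 animals of each of these 4 groups. Region 5 (chr5:21718133-21718823) had 5.61 in trained and 6.09 in naive mice of 8 months, genotypes together.

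The region numbers of Erbb4 and Adarb2 varied from animal to animal much as those of some other genes did. On the log2 scale, less the log2 of each animal's peak number, the Pearson correlation across 24 animals was 0.71 between Erbb4 and Adarb2, 0.07 between Erbb4 and Reln and −0.09 between Adarb2 and Reln. Among 2667 genes with a mean of at least 3 regions, the closest to Erbb4 were Cntnap2 (r = 0.86), Lrp1b (0.84) and Lingo2 (0.79). The closest to Adarb2 were Nrg3 (0.82), Exoc4 (0.81) and Cntnap2 (0.79), and those closest to Reln were Cilp2 (0.66), Tmem116 (0.59) and Akap7 (0.58). All genes of an animal share its libraries and peak calling, and these values are given as a description.

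Genes of the pathways around the members mostly had regions. Of all 22380 genes, 13874 had a region in at least 1 animal, and 11.6% of the genes tested passed for age. All 7 neuregulin and ErbB genes had a region in all 24 animals, and 0 of 7 passed the test for age, with a median log2 difference of 0.00. Of 7 reelin pathway genes, 5 had a region in all animals and 0 of 6 tested passed. The share of all genes with a region in all 24 animals is not given here. Of 33 other interneuron genes, 31 were in the annotation and 28 had a region. Calb2, Htr3a and Tac1 had none.

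Both editing enzymes of the family rose in number of regions with age, as 1099 of all 9570 genes did. Adar had 4.33 ± 2.31 regions at 8 months and 2.08 ± 0.289 at 5 months (SD, n = 12 each), a log2 difference of 0.69 ± 0.16 (adjusted p 0.0156, limma). Adarb1 had 9.92 ± 3.8 regions at 8 months and 5.83 ± 1.11 at 5 months, a log2 difference of 0.62 ± 0.14 (adjusted p 0.0161, limma). They kept an adjusted p under 0.05 when peak numbers were subtracted, at 0.0411 and 0.0368, and lost it with the same number of best peaks per animal, at 0.0695 and 0.543. Whether they differ from Adarb2 in this was not tested.

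Markers of the other cells in the tissue had regions as well, as did 13874 of all 22380 genes. All 10 pyramidal and granule cell genes, 7 astrocyte and 6 oligodendrocyte genes had a region, and the summed regions were 29 to 57, 16 to 35 and 12 to 39 at 8 months, against 23 to 37, 13 to 23 and 13 to 31 at 5 months. Slc17a7 and Wfs1 (2 of 9 tested), Gfap (1 of 7) and Cnp (1 of 5) rose in number of regions with age in limma, beside 11.6% of all genes called, with adjusted p of 0.0305, 0.0205, 0.0258 and 0.0445, and each of these 4 calls was lost with peak numbers subtracted. For the choroid plexus the sums were 5 to 9 and 5 to 12, with its defining gene Ttr at 0 in every animal. The part of these cells in the member values was not tested.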

How the data were processed

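MeRIP-seq of hippocampal RNA gave an m6A-IP and an input library for each of 24 mice, 3 in each of 8 conditions taken from the sample labels. The members and all gene lists were chosen with earlier results of these data known. Per the study's methods and processing notes, the authors aligned reads to mm9 with STAR 2.7.3a, kept uniquely mapped reads, removed reads in repetitive regions and called peaks of each IP against its input with MACS2 2.2.6. The deposited peak lists give the fold enrichment at the summit, a ratio of IP over input, and the −log10 q-value. The deposited tables, made by the authors with DiffBind 2.8.0, give group means on the log2 scale and list peaks with a p-value up to 0.05. They also hold the authors' fold changes, p-values and adjusted p-values, which were not used. Reads per peak and the inputs on their own were not analysed here, so the 22601 to 57293 peaks per animal are the measure of yield and limit what could be detected.

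Overlapping peaks (at least 1 bp) were merged across animals into 81807 regions, which were assigned to GENCODE genes of NCBIM37 with bedtools 2.31.1. Regions called in 3 to 21 animals were compared between 12 and 12 animals with 2-sided Fisher's exact tests (scipy 1.17.1). Log2 fold enrichment of the 12187 regions called in all animals, and log2 (regions + 1) of genes with a mean of at least 1 region, were fitted with limma 3.58.1 (R 4.3.3) on the 8 condition means. Benjamini-Hochberg adjustment ran over all regions or genes of a factor. Both steps were tested on simulated data. Each replicate is a separate animal. A result among the other interneuron genes and a sequence are not reported here.

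Named regions were, by rule, those called in all animals, the region of each gene with the widest difference in calls for each factor, and in each table the row of each gene with the largest difference of group means. Regions beyond this rule were named after their values were seen. Alternatives were the same number of best peaks per animal, a −log10 q of 3 or 5, 200 bp windows, no centring, quantile normalisation, regions called in at least 20 animals, −log10 q in place of fold, a pseudocount of 0.5, no filter on the mean, subtraction of log2 peak numbers and leaving out each animal.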

Additional observations from a re-analysis of the deposited data

How the results depend on the processing

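The 9 counts of members that passed a test (calls, enrichment and region number, each for age, genotype and training) were 0 in the fits reported and 0 in each of the 252 alternatives run, and no member reached an adjusted p under 0.05 in any of them. No paired analysis was possible because no animal was in more than 1 condition. Some directions turned, and the cause was not tested. With −log10 q in place of fold enrichment, the log2 difference by age was −0.04 for Erbb4 region 1, −0.07 for Erbb4 region 2 and 0.12 for Erbb4 region 43. With log2 peak numbers subtracted, region number differed by −0.07 in Erbb4 between KI and WT, and in Reln by −0.04 by age and 0.17 between trained and naive mice. With the same number of best peaks per animal, it differed by 0.02 in Erbb4 and 0.23 in Adarb2 between trained and naive mice, by −0.20 in Adarb2 between KI and WT, and by −0.10 in Slc17a7 by age. Leaving out 1 animal at a time gave −0.07 to 0.10 for Erbb4 region 1 and −0.04 to 0.12 for region 2 by age, −0.14 to 0.01 for region 29 by genotype, −0.06 to 0.12 for region 36 by training, −0.13 to 0.15 for Reln by training and −0.13 to 0.01 for Adarb2 by age. For Erbb4 by age it gave −0.30 to −0.09, with the lowest adjusted p, 0.104 in limma, without 1 WT trained mouse of 5 months. With the same number of best peaks per animal, 45 of 7394 genes passed for age, against 1113 of 9570 in the fit reported, 315 with peak numbers subtracted and 938 of 13874 without the filter. For genotype, 7 genes passed in the fit reported, 2 with the same number of best peaks and 0 with peak numbers subtracted, and for training 3, 2 and 0, with 5 without the filter. Slc17a7 lost its call for age in 11 of the fits that left out 1 animal, Gfap in 2 and Cnp in 16, with adjusted p of at most 0.0592, 0.0537 and 0.0863.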
